A study of Mus musculus with 21 samples.

Results

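Antigen presentation genes were described here in cells of the mouse stomach corpus. Members were taken from the deposited expression table as the rows naming exactly 1 gene whose symbol begins with H2- (the mouse major histocompatibility complex) or is B2m, Tap1, Tap2, Tapbp, Psmb8, Psmb9, Psmb10, Psme1, Psme2, Nlrc5, Ciita or Cd74. Where a gene had more than 1 row, its brightest row by mean over the 21 arrays was kept. This gave 45 of the 22180 genes tested, 32 on the class I side, 12 on the class II side, and H2-Ke6, a dehydrogenase gene that is a member by its symbol only. Of the 45 genes, 38 lie on chromosome 17. Cd74 and the heavy chain gene H2-D1 were not analysed here, and 7 rows that name several H2 genes at once were not used.

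The study separated corpus cells by how brightly an Lgr5 reporter, green fluorescent protein, shone in a cell sorter, into high, low and negative populations, and measured their RNA on microarrays. Its title places Lgr5 in chief cells, which secrete pepsinogen at the gland base. Tamoxifen mice had received 0.27 mg of tamoxifen per g of body weight 24 hours before isolation (4 arrays per population), and control mice were uninjected (3 arrays per population). Effects of the drug, of being injected and of the sorting run cannot be told apart. Age, sex and strain are not given in the labels used here. The design calls the arrays of a group technical replicates from individual sorting runs, so p-values measure the spread between sorts, and the labels do not say that these came from separate animals.

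Class I molecules show peptides made inside the cell to CD8 T cells. The proteasome cuts the peptides, the TAP transporter carries them into the endoplasmic reticulum, and tapasin helps to load them onto a heavy chain paired with beta-2-microglobulin. Class II molecules show peptides from endosomes to CD4 T cells, mainly on dendritic cells, macrophages and B cells, and epithelial cells can take up class II expression under interferon gamma. Nlrc5 and Ciita are the transactivators of the class I and the class II genes.

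Signals are log2 values. As a guide to background, the 95th percentile of the mean signals of 1105 olfactory receptor genes was 4.16, and 23 of the 45 members had a mean above it. The genes named with values are 28 on the class I and class II sides and H2-Ke6, and the other 16 had means from 2.41 to 4.11. Array medians lay between 3.95 and 4.25, and arrays of a group correlated at Pearson r of 0.944 to 0.991. The number of arrays limits the precision. Lgr5 drives the reporter, and its signal of 8.40 to 9.15 in control high, 7.48 to 7.71 in control low and 4.06 to 4.82 in control negative arrays followed the labels. Lgr5 signals of the tamoxifen arrays are not given here, so that check covers control arrays only. Summed linear signals of 4 chief cell markers lay between 11847 and 20118 on the 21 arrays and differed between groups, as given beside the results.

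A gene was called changed where its limma adjusted p over all 22180 genes was under 0.05, and each ± is the standard error (SE) of a difference unless marked SD. Counts of members at an unadjusted p under 0.05 use a looser threshold than calls. Shares of all genes beside them are of called genes, and shares at the looser threshold are not given here. Relative to control, 7 of 45 members had risen in low cells, beside 5.35% of all genes. All 7 were on the class I side, which holds 32 of the 45. In negative cells 3 had risen, Psmb8, Psmb10 and Tap2, beside 1.62% of all genes. No member was called in high cells, beside 2.73% of all genes. No class II member was called in any of the 3 populations. The members that rose in low cells serve peptide cutting (Psmb8, Psmb9, Psmb10, Psme1) and transport (Tap1, Tap2), with 1 heavy chain (H2-Q4).

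Promoter sequence from RefSeq (GRCm38.p6) is shown for genes whose signal rose with tamoxifen, because 3 of those with a promoter entry are neighbours on chromosome 17. Tap2, which also rose, has no entry. Psmb9 and Tap1 start head to head and share the 225 bases between them, and Psmb8 starts downstream of Tap1. Psmb10 lies on another chromosome, and H2-Q4 is the heavy chain that rose. Capitals mark every match, on either strand, to 1 of 4 motifs: the interferon-stimulated response element (GAAANN followed by GAAA), the gamma activated site (TTCNNNGAA), the NF-kB site (GGGNN followed by TTCCC) and the Y box (CCAAT). The stretch between Psmb9 and Tap1 is chr17:34187331-34187555, read on the Tap1 strand (+), the Psmb8 stretch chr17:34197945-34198194 (+), the Psmb10 stretch chr8:105938393-105938642 (-), and the H2-Q4 stretch chr17:35379367-35379616 (+). Each ends at the base before the gene's start.
Psmb9-Tap1: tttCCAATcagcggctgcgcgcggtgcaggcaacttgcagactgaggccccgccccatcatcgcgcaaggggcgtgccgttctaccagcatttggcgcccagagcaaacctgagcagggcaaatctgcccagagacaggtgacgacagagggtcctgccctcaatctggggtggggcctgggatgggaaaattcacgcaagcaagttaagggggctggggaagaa
Psmb8: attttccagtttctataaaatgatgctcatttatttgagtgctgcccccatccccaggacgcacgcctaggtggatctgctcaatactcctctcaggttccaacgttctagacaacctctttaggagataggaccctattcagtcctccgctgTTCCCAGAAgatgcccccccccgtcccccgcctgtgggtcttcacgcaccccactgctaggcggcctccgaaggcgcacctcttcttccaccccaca
Psmb10: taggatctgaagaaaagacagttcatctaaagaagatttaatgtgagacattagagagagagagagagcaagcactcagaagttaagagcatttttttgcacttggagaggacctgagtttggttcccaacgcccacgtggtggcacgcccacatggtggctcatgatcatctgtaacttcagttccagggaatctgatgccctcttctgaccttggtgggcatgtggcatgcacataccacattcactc
H2-Q4: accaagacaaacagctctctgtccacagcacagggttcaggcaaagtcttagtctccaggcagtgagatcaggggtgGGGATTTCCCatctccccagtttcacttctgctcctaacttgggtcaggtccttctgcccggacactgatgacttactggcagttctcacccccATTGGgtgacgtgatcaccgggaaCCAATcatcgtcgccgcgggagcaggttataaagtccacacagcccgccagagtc

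The same 4 motifs were counted in the 250 bases before the start of each of the 33 members that have a promoter entry, beside all 32851 promoters of the table. The interferon-stimulated response element was found in 2 members, B2m and H2-T23, and in 2.98% of all promoters. The gamma activated site was found in 4 members and 7.02% of promoters, and among the risen genes in Psmb8, 97 bases before its start. The NF-kB site was found in 4 members, H2-K1, H2-Q4, H2-Aa and H2-Oa, and in 1.53% of promoters. The Y box was found in 27 of the 33 members and in 33.8% of promoters. Of the 6 risen genes with an entry, 1 held the gamma activated site, 1 the NF-kB site and 3 the Y box (Psmb9, Tap1 and H2-Q4). The Y box of Psmb9 and Tap1 is 1 site in their shared stretch, counted for each gene. None of the 6 held the exact letters searched for the interferon-stimulated response element, and variants of a motif were not searched. A match describes the letters only, and a missing match does not show that an element is absent.

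The largest log2 differences among the members in low cells were those of Psmb10, Psmb9 and Psmb8. There, 7 of 45 members had risen (7 of 32 on the class I side), beside 5.35% of all genes called higher and 8.32% called in either direction. Psmb10 and Psmb8 encode catalytic subunits that replace constitutive ones in the immunoproteasome. Psmb10 measured 6.58, 6.76 and 7.53 on the control low arrays and 9.42, 9.18, 9.08 and 8.38 on the tamoxifen low arrays. Every tamoxifen array was above every control array, with a 4.18-fold difference (log2 2.06 ± 0.26, adjusted p = 4.53e-05). Psmb8 measured 6.19, 5.73 and 5.40 in control low and 7.77, 7.95, 7.68 and 6.97 in tamoxifen low cells. The groups again did not overlap, and the rise was 3.52-fold (log2 1.81 ± 0.26, adjusted p = 0.000152). Psmb9, the third such subunit, measured 4.95, 7.15 and 7.27 in control low and 8.73, 8.44, 8.68 and 7.76 in tamoxifen low cells. It rose 3.85-fold (log2 1.94 ± 0.44, adjusted p = 0.00809), with control low 1 far below the other control arrays. Without that array the difference was 1.19 and the call was lost (adjusted p = 0.0707).

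Psme1 and Psme2 encode the paired subunits of the PA28 activator, which opens the proteasome. Psme1 measured 7.57, 7.66 and 7.75 in control low and 8.89, 8.51, 8.91 and 8.47 in tamoxifen low cells, and rose 2.05-fold without overlap (log2 1.04 ± 0.16, adjusted p = 0.000344). Psme2 measured 6.31, 6.48 and 6.51 in control low and 6.98, 6.26, 6.57 and 6.91 in tamoxifen low cells. The Psme2 groups overlapped, with a log2 difference of 0.25 ± 0.18 (adjusted p = 0.484). Of the constitutive subunits that the immunoproteasome replaces, Psmb6 rose (log2 0.71 ± 0.20, adjusted p = 0.0264), while Psmb5 changed by 0.63 ± 0.26 (adjusted p = 0.161) and Psmb7 by 0.19 ± 0.16 (adjusted p = 0.562), neither past the threshold. Whether the immunoproteasome subunits differ from these counterparts in their change was not tested.

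**Figure D1:**
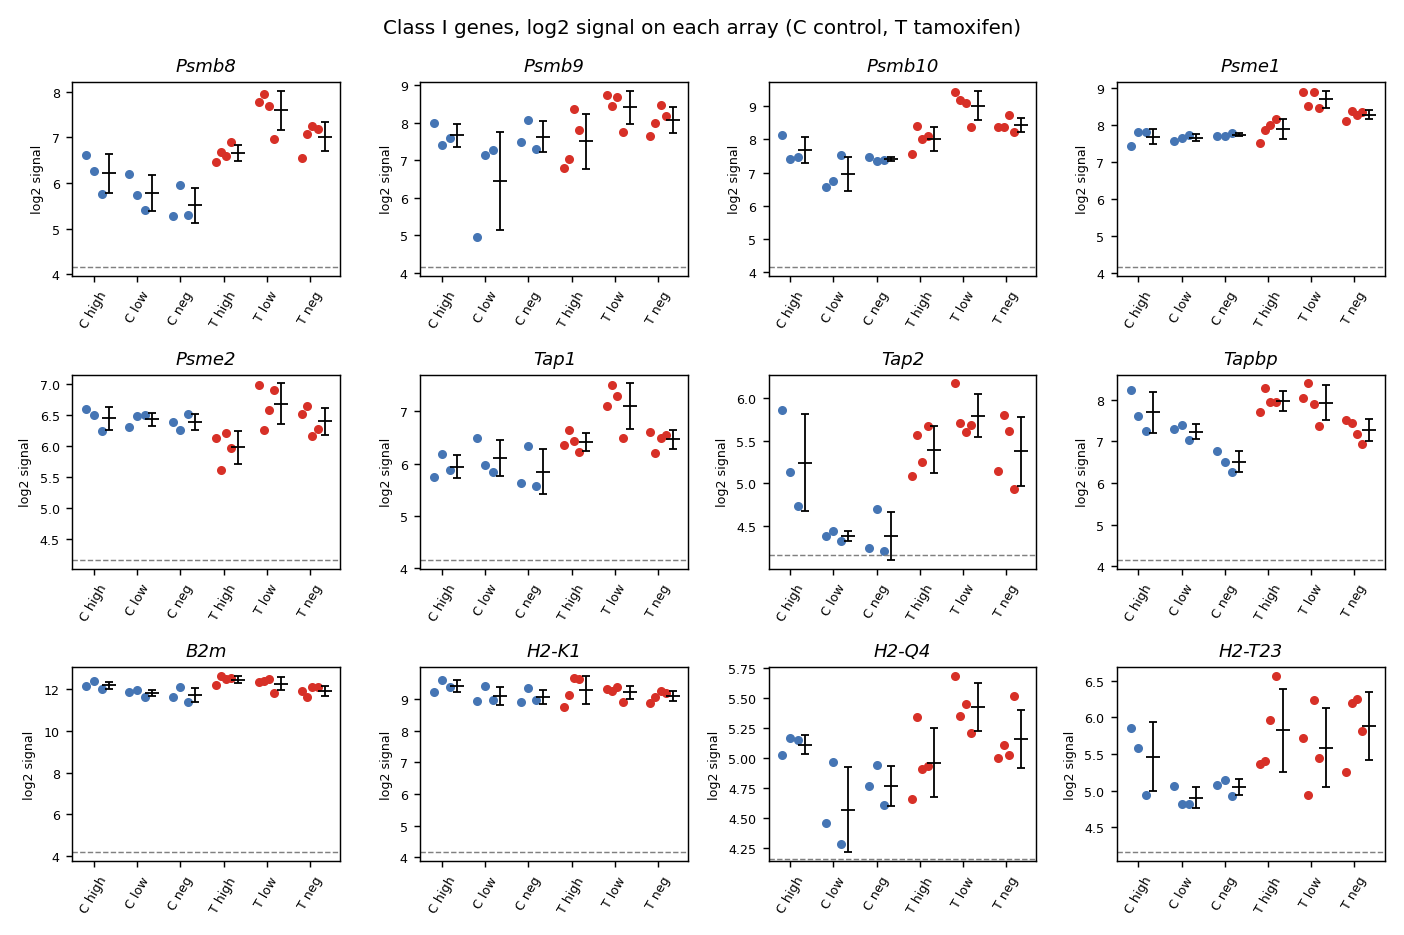
Log2 signal of 12 class I genes on each array (y axis), by group (x axis, C control in blue with 3 arrays, T tamoxifen in red with 4), with the mean and SD as a black bar beside the points and the background guide of 4.16 as a dashed line. Psmb8, Psmb10, Psme1 and Tap2 have every tamoxifen low array above every control low array, while the control low and tamoxifen low points of B2m and H2-K1 overlap.

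Signal of the peptide transport genes rose as well in low cells. Tap1 and Tap2 encode the paired chains of the TAP transporter. Tap2 measured 4.39, 4.44 and 4.32 in control low cells, just above the background guide, and 6.17, 5.71, 5.61 and 5.69 in tamoxifen low cells. It rose 2.65-fold without overlap (log2 1.41 ± 0.24, adjusted p = 0.000909). Tap1 measured 6.50, 5.96 and 5.84 in control low and 7.10, 7.51, 7.29 and 6.48 in tamoxifen low cells, a 1.99-fold rise (log2 0.99 ± 0.23, adjusted p = 0.00897). Control low 1 and tamoxifen low 4 overlapped for this gene. Tapbp, which encodes tapasin, measured 7.29, 7.39 and 7.04 in control low and 8.04, 8.40, 7.90 and 7.38 in tamoxifen low cells, with log2 0.69 ± 0.24 (adjusted p = 0.0811). That difference did not pass the threshold, and a dimmer Tapbp probe set, with a mean of 5.90, gave 0.20.

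Among the chains that carry the peptide, H2-Q4 was the only one called in low cells. B2m, the light chain shared by class I molecules, measured 11.87, 11.95 and 11.65 in control low and 12.38, 12.42, 12.53 and 11.82 in tamoxifen low cells, and its groups overlapped, with a log2 difference of 0.46 ± 0.19 (adjusted p = 0.158). H2-K1, a classical heavy chain, measured 8.92, 9.42 and 8.95 in control low and 9.32, 9.24, 9.37 and 8.91 in tamoxifen low cells. Its groups overlapped almost fully, with a difference of 0.11 ± 0.21 and a 95% interval of -0.32 to 0.54. H2-Q4, a non-classical heavy chain, measured 4.46, 4.96 and 4.28 in control low and 5.69, 5.36, 5.45 and 5.21 in tamoxifen low cells. It rose 1.81-fold without overlap (log2 0.86 ± 0.19, adjusted p = 0.00608), while its dimmer probe set gave 0.53 ± 0.30. Class I heavy chain genes are close copies of one another, so a probe may read more than 1 of them.

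H2-T23, the non-classical heavy chain Qa-1, measured 5.07, 4.82 and 4.82 in control low and 5.73, 4.95, 6.23 and 5.44 in tamoxifen low cells. The groups overlapped, and the difference of 0.68 ± 0.31 was not called (adjusted p = 0.202). Nlrc5 had a mean over all arrays of 3.84, at the level of background, and a difference of 0.36 ± 0.19 in low cells (adjusted p = 0.293). In all, 6 of the 32 class I genes were higher without overlap in low cells, beside 12.1% of all genes. Over the 32 class I genes the median log2 difference in low cells was 0.12, beside 0.01 over all genes.

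Other cell types also differed between these low populations. Summed linear signals of the 4 tuft cell markers were 1928 to 4512 on control low and 144 to 570 on tamoxifen low arrays, and all 4 of these genes fell. Those of the 2 parietal cell markers were 9452 to 11804 and 2140 to 4675, with neither gene called there. Sums of the 4 chief cell markers were 17982 to 20118 on control low and 15114 to 17515 on tamoxifen low arrays. Of these markers Bhlha15, a transcription factor of secretory cells, was called lower (log2 -3.02 ± 0.36, adjusted p = 2.95e-05). Sums of 4 epithelial markers were 6013 to 7572 and 8353 to 9579, with the keratin Krt8 called higher (log2 0.88 ± 0.14, adjusted p = 0.000469). Sums of 6 endothelial markers were 89 to 115 on control low and 66 to 85 on tamoxifen low arrays, with 1 gene called lower by limma. The sums did not overlap between the groups for any of these lists. Ptprc, the leukocyte antigen CD45, measured 7.67, 6.11 and 6.21 in control low and 3.84, 3.74, 4.71 and 3.69 in tamoxifen low cells. The groups did not overlap, and Ptprc was at least 5.68-fold lower with tamoxifen, where its mean lay under the background guide (limma adjusted p = 0.0209). Its highest group mean was in control high cells (9.80, 9.10 and 8.25), where the tuft marker sums were 6253 to 9906. Sums of the 7 leukocyte markers, of which Ptprc was the 1 called, were 591 to 778 on control low and 423 to 548 on tamoxifen low arrays. Of these 7 genes, 4 had a control high mean above the background guide, against 6 in control negative cells. The sum of 18 macrophage and dendritic cell markers was 373 to 420 on control low and 409 to 427 on tamoxifen low arrays, with C1qc the 1 gene called, at least 1.02-fold higher with a control mean under the background guide. None of 8 T and NK cell and none of 5 B and plasma cell markers was called by limma. The part of these cell types in the class I rise was not tested, and in such bulk samples fewer cells of a type and less RNA per cell cannot be told apart.

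In negative cells 3 of 45 members had risen with tamoxifen, beside 1.62% of all genes called higher and 2.32% in either direction. Psmb8 measured 5.29, 5.95 and 5.30 in control negative and 6.54, 7.08, 7.24 and 7.18 in tamoxifen negative cells, a 2.82-fold rise (log2 1.50 ± 0.26, adjusted p = 0.00275). Psmb10 measured 7.47, 7.36 and 7.38 in control negative and 8.38, 8.36, 8.72 and 8.24 in tamoxifen negative cells, and rose 2.03-fold (log2 1.02 ± 0.26, adjusted p = 0.037). Tap2 measured 4.25, 4.70 and 4.21 in control negative and 5.15, 5.80, 5.61 and 4.94 in tamoxifen negative cells, and rose 1.99-fold (log2 0.99 ± 0.24, adjusted p = 0.0335). None of these 3 genes had overlapping groups. Psmb8 kept its call with any 1 array left out. Psmb10 did not without tamoxifen negative 1, 2 or 3 (adjusted p = 0.0727, 0.0847 and 0.129) or control negative 1, 2 or 3 (0.115, 0.139 and 0.146). Tap2 did not without tamoxifen negative 2 or 3 (adjusted p = 0.124 and 0.112) or control negative 1 or 3 (0.154 and 0.178), nor with only these groups in the fit (0.0614). Psmb10 was also not called with tamoxifen negative 3 and 4 both left out (adjusted p = 0.12).

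Several class I genes were higher on every tamoxifen negative array than on any control negative array but did not pass the threshold over all genes. Psme1 measured 7.70, 7.72 and 7.78 in control negative and 8.12, 8.39, 8.28 and 8.35 in tamoxifen negative cells (log2 0.55 ± 0.16, adjusted p = 0.0847). Tapbp measured 6.78, 6.51 and 6.26 against 7.52, 7.45, 7.19 and 6.93 (log2 0.76 ± 0.24, adjusted p = 0.12), and its dimmer probe set gave 0.11. H2-T23 measured 5.08, 5.14 and 4.92 against 5.26, 6.20, 6.25 and 5.81 (log2 0.83 ± 0.31, adjusted p = 0.228). In all, 9 of the 32 class I genes were higher without overlap in this comparison, beside 7.89% of all genes. Psmb9 overlapped, with 7.50, 8.08 and 7.30 in control negative and 7.64, 7.99, 8.47 and 8.18 in tamoxifen negative cells (log2 0.45 ± 0.44, adjusted p = 0.767).

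Cell type markers differed between the negative populations too. Summed signals of 4 surface pit cell markers were 21564 to 22678 on control negative and 12696 to 17512 on tamoxifen negative arrays, with none of the 4 called by limma. Those of the parietal cell markers were 2620 to 4253 and 403 to 2089, with Atp4a, a proton pump subunit, called lower (log2 -1.95 ± 0.45, adjusted p = 0.0231). Tuft cell marker sums were 616 to 1374 and 204 to 575, and epithelial sums 6839 to 7266 and 7370 to 9293. None of these 4 sums overlapped between the groups, whereas the chief cell sums did, and their part in the class I rise in negative cells was not tested.

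High cells had no called member with limma, beside 2.73% of all genes called. At the looser unadjusted p under 0.05 there were 3 members. Groups did not overlap for 5 of 45 members, beside 10.4% of all genes. Psmb8 measured 6.61, 6.27 and 5.76 in control high and 6.46, 6.67, 6.59 and 6.88 in tamoxifen high cells (log2 0.44 ± 0.26, 95% interval -0.10 to 0.97). Psmb10 measured 8.14, 7.42 and 7.47 in control high and 7.54, 8.39, 8.01 and 8.11 in tamoxifen high cells (log2 0.34 ± 0.26, 95% interval -0.20 to 0.88). Both genes had overlapping groups. Tap1 did not overlap, with 5.75, 6.18 and 5.88 in control high and 6.35, 6.64, 6.43 and 6.23 in tamoxifen high cells (log2 0.48 ± 0.23, adjusted p = 0.298). Psme2 lay the other way without overlap, with 6.60, 6.50 and 6.24 in control high and 6.13, 5.61, 6.21 and 5.97 in tamoxifen high cells (log2 -0.47 ± 0.18, adjusted p = 0.187). The 95% intervals for Psmb8 and Psmb10 in high cells end below the lower ends of those in low cells, 1.28 and 1.53. Both genes were picked for their large differences in low cells. The direct test of a difference in effect, given below, called neither (limma adjusted p = 0.35 and 0.132). Cell type markers differed between the high populations as well. Sums of the 2 parietal cell markers were 2297 to 3387 on control high and 164 to 783 on tamoxifen high arrays. Both genes were called lower by limma. Sums of 6 endothelial markers were 155 to 416 and 99 to 135, also without overlap, with 1 gene called lower. The tuft, chief, pit and epithelial sums overlapped, although 1 of the 4 chief cell markers was called lower by limma. Of 5 B and plasma cell markers, 1 was called lower too, with overlapping sums. The part of these cell types in the high cell values was not tested.

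**Figure D2:**
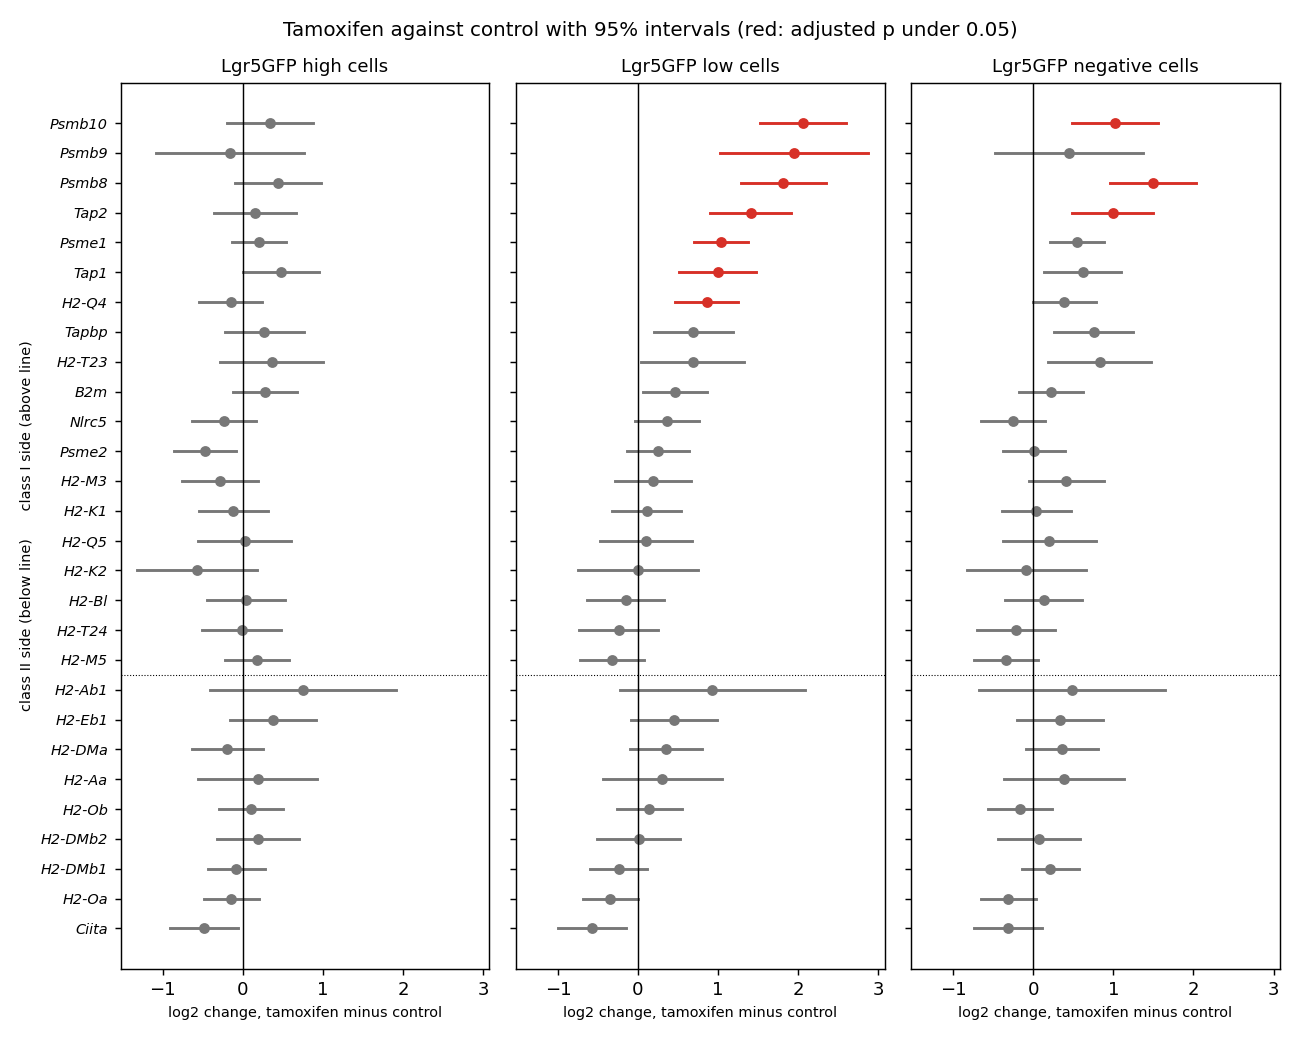
Log2 difference of tamoxifen minus control (x axis) for the 28 named class I and class II genes (y axis) in high, low and negative cells, as a point with its 95% interval from limma, in red where the adjusted p was under 0.05. The 7 red genes in low cells and the 3 in negative cells are all on the class I side, and no gene is red in high cells.

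The test of whether the tamoxifen effect itself differed between populations called no member. For low minus high cells, 0.0271% of all genes were called by adjusted p. At an unadjusted p under 0.05, a looser threshold, there were 9 members, all on the class I side. The share of all genes at that threshold is not given here. The Psmb10 effect was larger in low than in high cells by 1.72 ± 0.36 on the log2 scale (adjusted p = 0.132), that of Psmb8 by 1.38 ± 0.36 (adjusted p = 0.35), that of Psmb9 by 2.11 ± 0.63 (adjusted p = 0.393) and that of H2-Q4 by 1.01 ± 0.26 (adjusted p = 0.35). Psmb10 passed the threshold when tamoxifen low 4 was left out (adjusted p = 0.0349), and when control low 3 was (adjusted p = 0.0483). For low minus negative cells, 0.839% of all genes were called, 4 members had an unadjusted p under 0.05, and the smallest adjusted p was that of Psmb10 (1.04 ± 0.36, adjusted p = 0.281). For high minus negative cells, 0.248% of all genes were called, 3 members had an unadjusted p under 0.05, and the smallest adjusted p was that of Psmb8 (-1.06 ± 0.36, adjusted p = 0.319). A difference between populations in the tamoxifen effect on these genes was thus not called.

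Compared directly, tamoxifen high and tamoxifen low cells differed in 4 members, all lower in high cells and all of the peptide cutting group, beside 1.77% of all genes called lower and 3.22% in either direction. This comparison shares the tamoxifen low arrays with the one above. Psme1 measured 7.52, 7.87, 8.0 and 8.16 in tamoxifen high cells, all below the tamoxifen low arrays (log2 -0.81 ± 0.15, adjusted p = 0.00385). Psme2 was also lower without overlap (log2 -0.70 ± 0.17, adjusted p = 0.0251), although it had not risen with tamoxifen in low cells. Psmb8 (log2 -0.94 ± 0.24, adjusted p = 0.0313) did not overlap, and Psmb10 (log2 -1.0 ± 0.24, adjusted p = 0.0221) overlapped in 1 array of each group, tamoxifen high 2 and tamoxifen low 4. Only the Psme1 call was kept whichever array was left out. Psme2 was not called without tamoxifen high 2 or 4 (adjusted p = 0.0707 and 0.0527) or tamoxifen low 1 or 4 (0.106 and 0.0766), Psmb10 without tamoxifen high 1 or 3 (0.0508 and 0.0518) or tamoxifen low 1, 2 or 3 (0.0951, 0.0691 and 0.0572), and Psmb8 without tamoxifen high 1, 2 or 3 (0.0571, 0.0503 and 0.0757) or tamoxifen low 1, 2 or 3 (0.105, 0.111 and 0.0761). With only these 2 groups in the fit, none of the 4 genes was called, and under cyclic loess Psmb8 (0.0712) and Psme2 (0.065) were not.

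In uninjected mice the peptide cutting genes showed no called difference between populations, whereas Tapbp and Tap2 did. In the comparison of control high with control negative cells, 12.3% of all genes and 3 members were called. Tapbp measured 8.23, 7.62 and 7.25 in control high and 6.78, 6.51 and 6.26 in control negative cells, 2.27-fold higher in high cells (log2 1.19 ± 0.25, adjusted p = 0.00304). Tap2 measured 5.86, 5.13 and 4.74 in control high cells, above the control negative arrays, with log2 0.86 ± 0.26 (adjusted p = 0.0331). The Tap2 call was lost without control high 1 or 2 (adjusted p = 0.246 and 0.0597) or control negative 1 or 3 (0.122 and 0.137), and with only these groups in the fit (0.0709). Its value without control high 1 was 0.55. Tapbp kept its call with any 1 of these arrays left out, and with its probe sets averaged the difference was 0.76 (adjusted p = 0.02). The third was H2-Ab1 on the class II side, described below. No member was called by limma between control low and negative cells, beside 5.27% of all genes called, or between control high and low cells, beside 1.34%. At the looser unadjusted p under 0.05 there were 3 and 4 members.

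In tamoxifen mice, Tapbp was again higher in high than in negative cells (7.70, 8.29, 7.94 and 7.95 against 7.52, 7.45, 7.19 and 6.93, log2 0.70 ± 0.22, adjusted p = 0.0468), where 10.3% of all genes and 3 members were called. This call was lost without tamoxifen high 2, 3 or 4 (adjusted p = 0.129, 0.0797 and 0.0742) or tamoxifen negative 2, 3 or 4 (0.0566, 0.116 and 0.137). It was also lost with the Tapbp probe sets averaged (log2 0.46, adjusted p = 0.131), with only these groups in the fit (0.0728), and without both tamoxifen negative 3 and 4 (log2 0.49, adjusted p = 0.401). H2-M3, a non-classical heavy chain that presents formylated peptides, measured 4.96, 4.61, 4.93 and 4.94 in tamoxifen high and 5.68, 5.54, 5.67 and 5.40 in tamoxifen negative cells. The H2-M3 groups did not overlap (log2 -0.71 ± 0.21, adjusted p = 0.033), and the call was lost without tamoxifen high 2 or 3 (0.091 and 0.0552) or tamoxifen negative 1, 2 or 3 (0.0709, 0.0584 and 0.0918). It was also lost under cyclic loess (0.0515) and without both tamoxifen negative 3 and 4 (0.143). B2m was higher on every tamoxifen high array (12.23, 12.63, 12.49 and 12.55) than on any tamoxifen negative array (11.91, 11.63, 12.11 and 12.11), just short of the threshold (log2 0.54 ± 0.18, adjusted p = 0.0591). Between tamoxifen low and negative cells limma called no member, beside 2.24% of all genes called. At the looser unadjusted p under 0.05 there were 7 members.

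**Figure D3:**
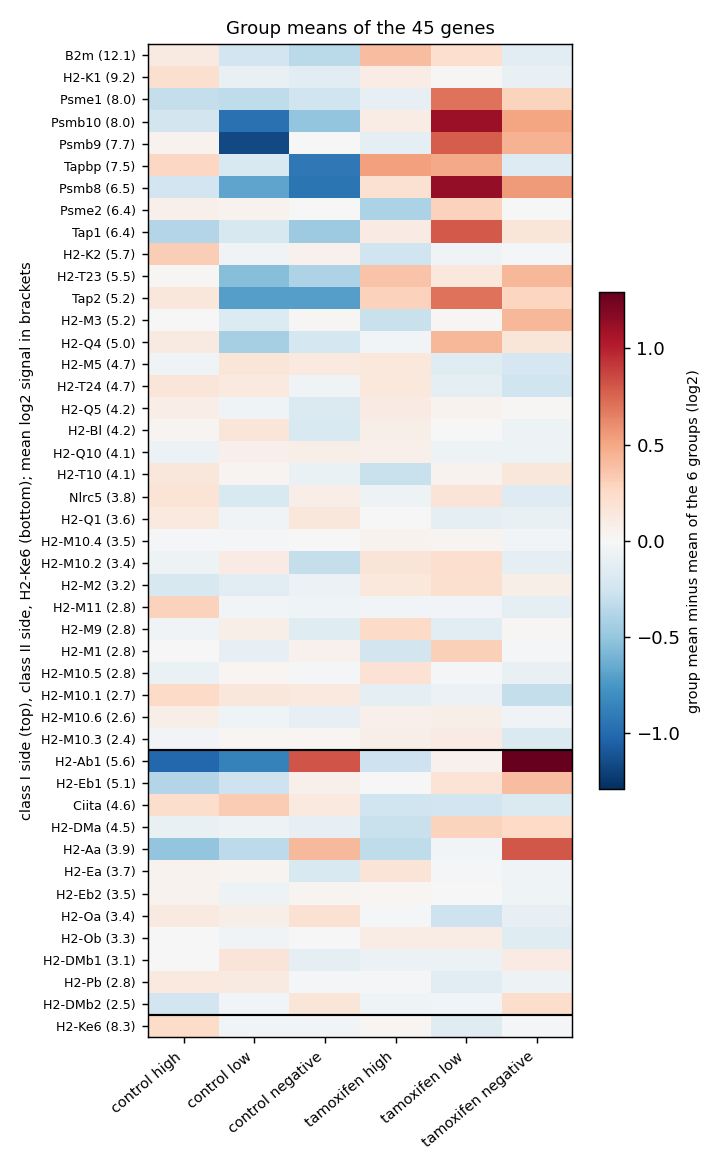
Mean log2 signal of each of the 45 genes in each group minus the mean of its 6 group means (colour scale), with groups as columns, class I genes above, class II genes in the middle and H2-Ke6 at the bottom, each with its mean over 21 arrays in brackets. Psmb8, Psmb10, Tap1 and Psme1 are reddest in tamoxifen low cells, and H2-Ab1 and H2-Aa in tamoxifen negative cells.

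On the class II side, the surface chains H2-Ab1, H2-Aa and H2-Eb1 had their highest group means in negative cells, both in control and in tamoxifen mice. H2-Ab1, the beta chain of the I-A molecule, measured 4.30, 4.38 and 4.83 in control high, 4.09, 4.66 and 5.19 in control low, and 7.01, 5.63 and 6.35 in control negative cells. Control negative arrays lay above all other control arrays, and high cells were 3.54-fold below negative cells (log2 -1.82 ± 0.59, adjusted p = 0.0492). This call was lost without control high 1, 2 or 3 (adjusted p = 0.149, 0.127 and 0.0652) or control negative 1 or 3 (0.217 and 0.124), under cyclic loess (0.0577), and with the trended, robust form of eBayes (0.0665). Low cells were lower by a similar amount without a call (log2 -1.68 ± 0.59, adjusted p = 0.123). With tamoxifen, H2-Ab1 measured 4.21, 4.22, 6.45 and 6.16 in high, 5.59, 5.12, 6.07 and 5.51 in low, and 6.0, 5.71, 7.91 and 7.63 in negative cells. These groups overlapped, and the high to negative difference was -1.55 ± 0.51 (adjusted p = 0.0598).

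H2-Aa, the alpha chain of I-A, was at or under the background guide outside negative cells. It measured 3.33, 3.46 and 3.22 in control high, 3.47, 3.71 and 3.35 in control low, and 4.29, 4.14 and 4.38 in control negative cells, a high to negative difference of -0.93 ± 0.38 (adjusted p = 0.137). In tamoxifen mice it measured 3.58, 3.05, 4.09 and 3.37 in high and 3.49, 4.10, 5.79 and 5.22 in negative cells. It was called lower in high cells (log2 -1.13 ± 0.33, adjusted p = 0.0325), at least 1.41-fold, although the groups overlapped. The call was lost without tamoxifen high 2 or 4 (adjusted p = 0.0964 and 0.069) or tamoxifen negative 3 or 4 (0.142 and 0.106), and without both of the last pair the difference was -0.27 (adjusted p = 0.642). It was also lost with only these groups in the fit (adjusted p = 0.226). H2-Eb1, the beta chain of I-E, measured 4.75, 4.95 and 4.38 in control high, 5.32, 5.00 and 5.11 in control negative, and 4.80, 5.12, 6.27 and 5.70 in tamoxifen negative cells, with no call in any comparison.

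The 2 tamoxifen negative arrays with the most H2-Ab1, H2-Aa and H2-Eb1, numbers 3 and 4, also had the most macrophage and dendritic cell marker signal. Summed over 18 such markers, the linear signal was 385, 495, 1117 and 752 on the 4 tamoxifen negative arrays, 468 to 574 on control negative, and 344 to 454 on the arrays of the other 4 groups. Lyz2, the lysozyme of myeloid cells, measured 6.68, 4.98 and 5.99 in control negative and 2.96, 3.96 and 3.36 in control high cells (adjusted p = 0.0178). Tyrobp, a myeloid signalling adaptor, was also lower in control high cells (log2 -1.45 ± 0.44, adjusted p = 0.0334). Of the 18 markers, 2 were called lower in high than in negative cells in control mice, beside 7.66% of all genes, and 4 in tamoxifen mice, beside 6.97%. None was called higher. Of the 18 markers, 9 had means over the 21 arrays above the background guide, and 11 had a tamoxifen negative mean above it. Among those below it over the 21 arrays were Adgre1, Itgam, Itgax, Flt3, Zbtb46 and Xcr1, which define macrophages or dendritic cells. The part of such cells in the class II signal was not tested.

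**Figure D4:**
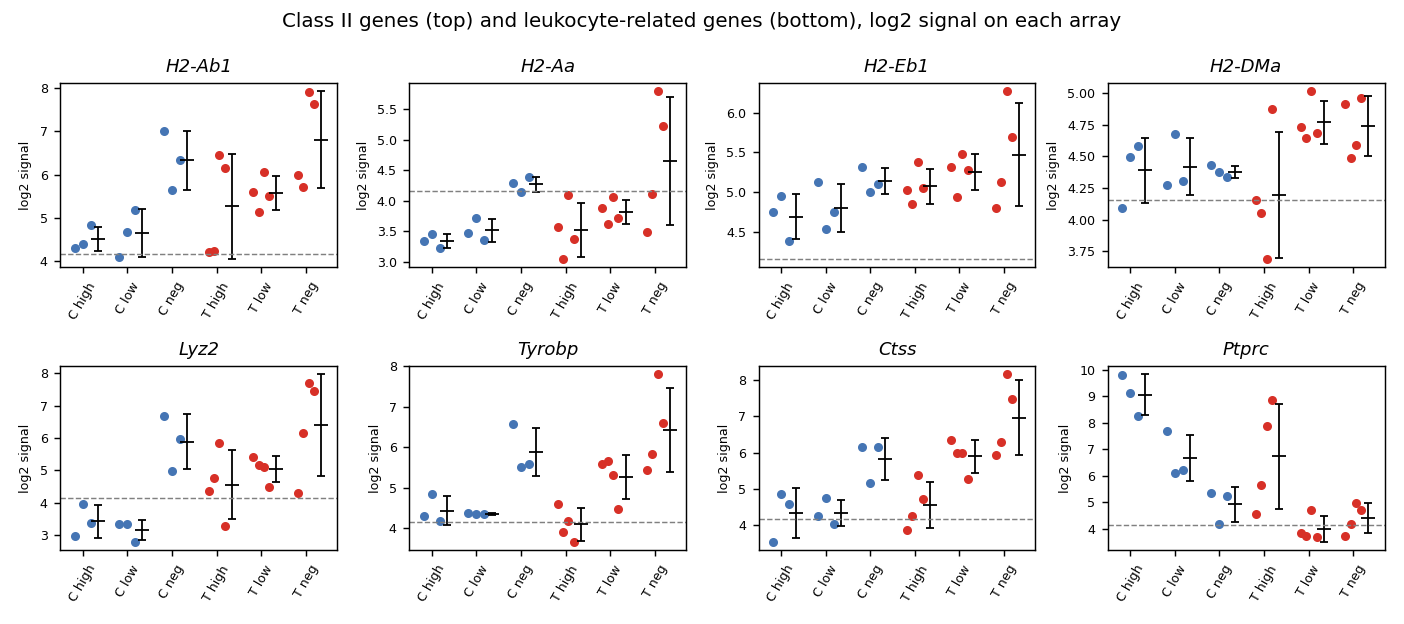
Log2 signal on each array (y axis) by group (x axis, C control in blue, T tamoxifen in red) for 4 class II genes above and Lyz2, Tyrobp, Ctss and Ptprc below, with mean and SD as a black bar and the background guide as a dashed line. The highest points of H2-Ab1, H2-Aa, H2-Eb1, Lyz2, Tyrobp and Ctss are tamoxifen negative 3 and 4, whereas Ptprc is highest in control high cells.

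With tamoxifen, none of the 12 class II genes was called by limma, and 1, 2 and 0 of them had an unadjusted p under 0.05 in high, low and negative cells. H2-Ab1 differed by 0.75 ± 0.56 in high, 0.93 ± 0.56 in low and 0.48 ± 0.56 in negative cells, with adjusted p of 0.534, 0.365 and 0.806. Its spread between arrays was wide, and the 95% interval in low cells ran from -0.23 to 2.09. Ciita measured 4.98, 4.93 and 4.80 in control high and 4.49, 4.45, 4.16 and 4.59 in tamoxifen high cells, lower without overlap but not called (log2 -0.48 ± 0.20, adjusted p = 0.226). In low cells Ciita measured 4.67, 5.39 and 4.95 in control and 4.25, 4.13, 4.66 and 4.68 in tamoxifen mice (log2 -0.57 ± 0.20, adjusted p = 0.0919). H2-DMa, a chain of the peptide exchange factor H2-DM, measured 4.28, 4.68 and 4.30 in control low and 4.73, 4.64, 5.01 and 4.68 in tamoxifen low cells, without a call. H2-DMb1, H2-DMb2, H2-Oa and H2-Ob, further peptide exchange chains, had means over all arrays of 3.07, 2.53, 3.43 and 3.28, under the background guide. The median difference of the 12 genes was 0.04 in high and low and 0.11 in negative cells, beside 0.00, 0.01 and 0.00 over all genes.

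Of the named members not yet described, H2-K2, H2-M5, H2-T24, H2-Q5 and H2-Bl had means of 5.74, 4.66, 4.65, 4.24 and 4.20, and none was called in any comparison. H2-Ke6 had a mean of 8.34 and was not called either. The other 16 members were likewise not called.

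Genes that work beside the members moved in both directions in low cells. Of 10 measured class I supply and loading partners, 3 rose and 2 fell there, beside 5.35% of all genes called higher and 2.98% called lower. Tapbpl, a tapasin-related peptide editor, rose without overlap from 6.59, 6.55 and 6.69 to 8.31, 7.81, 7.54 and 7.71 (log2 1.23 ± 0.20, adjusted p = 0.0005), and it also rose in high (0.75 ± 0.20, adjusted p = 0.0472) and negative cells (1.02 ± 0.20, adjusted p = 0.0075). Erap1, which trims peptides in the endoplasmic reticulum, rose in low cells from 6.32, 6.05 and 6.62 to 7.75, 7.74, 7.67 and 7.24 (log2 1.27 ± 0.21, adjusted p = 0.00055). The chaperones Calr (log2 -0.77 ± 0.16, adjusted p = 0.00461) and Canx (log2 -0.60 ± 0.13, adjusted p = 0.00485), which assist folding of class I chains, fell in low cells. Of 7 class I-like molecules, Procr rose (1.45 ± 0.33) and Azgp1 fell (-0.85 ± 0.26) in low cells.

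Among 10 genes of class II processing and control, 2 rose in high, 3 in low and 1 in negative cells, beside 1.7%, 5.35% and 1.62% of all genes called higher. Ctsl, a lysosomal protease, rose in all 3 (log2 1.32 ± 0.24, 1.21 ± 0.24 and 1.53 ± 0.24). Ifi30, a lysosomal thiol reductase, rose in high (1.44 ± 0.31) and low cells (1.19 ± 0.31), and Ctss, the protease that trims the invariant chain, in low cells (1.56 ± 0.46, adjusted p = 0.0394). None of 6 co-stimulation and checkpoint genes was called by limma in the 3 comparisons with tamoxifen. Of 15 measured genes of interferon signalling, 4 rose in low cells, beside the same 5.35% of all genes, the receptor chains Ifngr2 (1.22 ± 0.17) and Ifnar1 (0.86 ± 0.25) and the transcription factors Irf9 (1.46 ± 0.38) and Irf1 (0.76 ± 0.20). In negative cells the receptor chain Ifnar2 rose (0.97 ± 0.22), and in high cells none of the 15 was called by limma.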

How the data were processed

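RNA of sorted mouse stomach corpus cells was measured on 21 microarrays. The authors deposited log2 signals for 41345 probe sets. The submitters' processing notes name oligo, RMA, limma 3.26.8 and R 3.2.3 without saying what each did, and the genome build was not given in the sources used here. RMA commonly sets arrays to one distribution, and after that step a shift shared by most genes is not seen. Of the probe sets, 23521 name exactly 1 gene, and symbols were updated by gene number. The probe set with the highest mean stood for a gene. Control negative arrays were grouped by title and cell population label, since their source names read low.

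Group means of all 22180 genes on all arrays were fitted with limma 3.58.1 in R 4.3.3 (lmFit and eBayes, 12 comparisons, two-sided, Benjamini-Hochberg adjustment over all genes). The method was also run on simulated data with independent values on each array, which cannot show how pairing between arrays affects it. Members at or under the background guide in the dimmer group have folds given as lower bounds. Sequences came from RefSeq promoters (GRCm38.p6). Named were the members listed by symbol in the first paragraph, the main class II chains, and any H2 member above the background guide or called. The named list genes were all called ones up to 4 a list by smallest adjusted p, with Irf1, Ptprc and Lgr5 always, and a further gene of that rule is not reported here. Figures, Psmb5, Psmb6, Psmb7, and array values of list genes were chosen after their values were seen. Members and gene lists were chosen with earlier results of these data known. Python 3.11.15 with pandas 2.3.3 and matplotlib 3.10.9 drew the figures.

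The number in the array titles, which may mark the sorting run, was checked for pairing. Deviations from group means of arrays with the same number correlated at 0.09 to 0.32 over 9 control pairs and at -0.16 to 0.41 over 10 tamoxifen pairs. Arrays with unlike numbers correlated at -0.27 to 0.03 over 18 control pairs and at -0.28 to 0.34 over 38 tamoxifen pairs. Control arrays thus went with their number and tamoxifen arrays did not. The main fit did not take the numbers as pairs, so its control population comparisons leave that pairing out. Alternatives were eBayes with trend and robust, cyclic loess, averaging all probe sets of a gene, leaving out the dimmest 25 percent of genes, only the groups compared, the number as a random or fixed block, and each array left out in turn. Leaving out tamoxifen negative 3 and 4 together was chosen after the data were seen.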

Additional observations from a re-analysis of the deposited data

Results flagged for a closer look

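In 4 of the 87 groups of 4 arrays tested for named genes, 1 array lay far from the others by Dixon's test, which chance gives in about 1 in 20 groups. H2-Bl on tamoxifen negative 3 measured 3.70, with the other 3 arrays from 4.25 to 4.31. H2-M3 on tamoxifen high 2 measured 4.61, with the others from 4.93 to 4.96. H2-M5 on tamoxifen negative 1 measured 4.81, with the others from 4.33 to 4.35. H2-Q5 on tamoxifen low 3 measured 4.97, with the others from 3.99 to 4.08.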

How the results depend on the processing

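In low cells all 7 members called with tamoxifen kept their call in each of 7 other settings and with any 1 array left out, except Psmb9 without control low 1. No called value changed sign under any setting tried. With 1 array left out, called members with tamoxifen ranged from 6 to 10 in low (10 without tamoxifen low 4), 1 to 3 in negative and 0 to 0 in high cells. They ranged from 1 to 3 for control high against negative, 0 to 1 for control high against low (Tap2, adjusted p = 0.0382, without control high 3), 0 to 4 for tamoxifen high against negative, 0 to 2 for tamoxifen low against negative, 1 to 5 for tamoxifen high against low, and 0 to 1 for the difference in tamoxifen effect between low and high cells. With only the groups compared in the fit, 3 members were called for control low against negative (H2-Ab1, H2-Aa and Tapbp), 1 for tamoxifen high against negative and 0 for tamoxifen high against low. The title number as a random block gave 5 for tamoxifen high against negative, and leaving out tamoxifen negative 3 and 4 together gave 0. As a fixed replicate block, the title number gave 3 for tamoxifen low against negative. The replicate number as a block gave 9 with tamoxifen in low cells, adding Tapbp (adjusted p = 0.015) and Ciita, and 4 in negative cells, adding Tapbp (0.0213). Ciita was then called lower (log2 -0.62, adjusted p = 0.0451) and was the 1 class II gene called with tamoxifen in any setting. Control and tamoxifen arrays that share a replicate number have unlike title numbers, as do tamoxifen negative arrays and the high or low ones. The labels thus give no basis for this block, and nothing is drawn from the added calls. Under the title number block the H2-M3 call between tamoxifen high and negative cells was lost (0.125), and H2-Ab1 (0.0152) and B2m (0.0326) were called there. In each of 18 checks a control array deviated most like its own number in another population, against 2 of 20 for tamoxifen arrays. Genes near the background guide have little room to show a fall.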
